A study of Mus musculus with 66 samples.

Results

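A group of 10 mature miRNAs from one X-linked cluster, with miR-465c-5p, miR-741-3p and miR-743a-3p among them, was followed in mouse plasma. They are 10 of the 1826 miRNAs listed for C3H mice. The members were selected on the difference between tumor-bearing mice, with hepatocellular carcinoma (HCC), and tumor-free mice (non-HCC), so that difference is given below as a description with no test. The study asked which miRNAs in plasma accompany HCC in mice. Plasma was taken by cardiac puncture at necropsy from 13 male C3H mice, of which 8 carried HCC and 5 did not. The labels place all 13 more than 12 months after radiation, while the study's methods count both spontaneous and radiation-induced tumors among the HCC mice, and no label separates them. A second table holds 53 F2 libraries, from serial plasma samples of irradiated offspring of C3H x BALB/c hybrids.

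MiRNAs are short RNAs cut from a hairpin precursor, and either arm of the hairpin, named 5p or 3p, can give a mature miRNA. The bases at the start of the mature miRNA, the seed, pair with target mRNAs. The cluster described here lies between protein-coding genes on the X chromosome, evolves quickly, and is known chiefly from male germ cells of the testis. No tissue was measured in these libraries, so the testis origin of the family is background and not a measurement.

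All 10 members matched a mature sequence in RefSeq (GRCm38.p6). The sequences are shown because close copies decide which members can be told apart. Capitals mark the seed, bases 2 to 8, and each sequence runs 5′ to 3′. The prefix mmu, for mouse, is left out of names in most of the text.
mmu-miR-465c-5p: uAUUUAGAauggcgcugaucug
mmu-miR-465a-5p: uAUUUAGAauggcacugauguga
mmu-miR-743a-3p: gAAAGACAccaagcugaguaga
mmu-miR-743b-3p: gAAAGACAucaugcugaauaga
mmu-miR-743b-5p: uGUUCAGAcugguguccauca
mmu-miR-741-3p: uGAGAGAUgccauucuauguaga
mmu-miR-871-3p: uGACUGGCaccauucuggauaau
mmu-miR-878-3p: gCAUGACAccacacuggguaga
mmu-miR-881-3p: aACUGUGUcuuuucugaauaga
mmu-miR-463-5p: uACCUAAUuuguuguccaucau

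The 10 members carried 8 seeds. MiR-465a-5p and miR-465c-5p shared one and differed by A14G and G20C, with positions counted from 1 at the 5′ end of miR-465a-5p. MiR-743a-3p and miR-743b-3p shared another and differed by C9U, A12U and G18A, counted in the same way from miR-743a-3p. A further copy, miR-465b-5p, differed from miR-465c-5p at base 13 alone, with U in miR-465b-5p and C in miR-465c-5p. The mature 3p sequences of miR-465a, miR-465b and miR-465c were identical and stood as 1 joined entry in the table. Counts of single miR-465 and miR-743 copies are therefore uncertain, since reads of one copy could have been assigned to another.

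The members came from 10 hairpin genes on the minus strand of the X chromosome, at chrX:66776757-66839125 in GRCm38. This stretch of 62.4 kb held 19 annotated miRNA genes and 0 protein-coding genes, and no member hairpin overlapped another annotated gene. The nearest protein-coding genes were Slitrk2 (chrX:66649318-66661393) and Gm1140 (chrX:67682900-67693562). Mir743 lay at one end (chrX:66776757-66776818) and Mir465 at the other (chrX:66839052-66839125). MiR-465c-5p had 2 hairpin copies, Mir465c-1 (chrX:66825955-66826035) and Mir465c-2 (chrX:66832517-66832597), which gave the same mature sequence.

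Each count was a unique molecular index (UMI), so that amplified copies of a molecule were counted once. HCC libraries held 9513136 to 14247488 miRNA UMIs and non-HCC libraries 10467560 to 13962539. The tables list no value from 1 to 9, so a 0 stands for a count below 10. The labels name 8 separate HCC mice, but their libraries fell partly into pairs. Over 122 miRNAs with at least 1000 UMIs in every C3H mouse, the SD of the log2 ratio of shares was 0.13 between HCC mice 1 and 6, 0.22 between 3 and 7, and 0.24 between 2 and 5. These were the closest 3 of all 78 pairs of libraries, and the other 25 pairs of HCC mice ranged from 0.71 to 1.65. The paired libraries still differed beyond counting noise, by a chi-square of at least 202 per degree of freedom. Such a chi-square cannot tell separate mice from repeat libraries of 1 mouse, and which holds was not tested. The libraries were kept as separate mice, as labelled, with results also given for 5 HCC libraries after summing each pair. If the pairs are repeats, the tests below count too many HCC mice.

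mmu-miR-465c-5p was the most abundant member. It had 27 UMIs in the lowest HCC mouse, a median of 298.5 and 5805 in the highest. The 5 non-HCC mice had 13, 20, 10, 14 and 11 UMIs, so every HCC mouse lay above every non-HCC mouse. mmu-miR-741-3p had 15, 195 and 561 UMIs as the lowest, median and highest HCC value. Its non-HCC values were 21, 18, 12, 12 and 0, and HCC mouse 8, with 15 UMIs, lay among them.

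The paired copies mmu-miR-743a-3p and mmu-miR-743b-3p share a seed but not their abundance. mmu-miR-743a-3p had 16 to 348 UMIs in HCC mice, with a median of 34.5. It was listed at 0 in 4 non-HCC mice and at 10 UMIs in mouse 4, so the groups did not overlap. mmu-miR-743b-3p had 0 to 84 UMIs in HCC mice, with a median of 11 and 3 mice at 0, and was listed at 0 in all 5 non-HCC mice. The other arm of the same hairpin, mmu-miR-743b-5p, had 0 to 240 UMIs and a median of 18.5, with HCC mouse 8 at 0 and all non-HCC mice at 0.

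mmu-miR-871-3p had 0 to 1163 UMIs in HCC mice, with a median of 54.5, and 0, 11, 0, 0 and 0 in non-HCC mice. The remaining members, mmu-miR-463-5p, mmu-miR-465a-5p, mmu-miR-878-3p and mmu-miR-881-3p, were listed at 0 in every non-HCC mouse. Their HCC medians were 24.5, 24.5, 27 and 11.5 UMIs. Outside mouse 4 these 4 members reached at most 101 UMIs, in miR-881-3p of mouse 6.

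**Figure D1:**
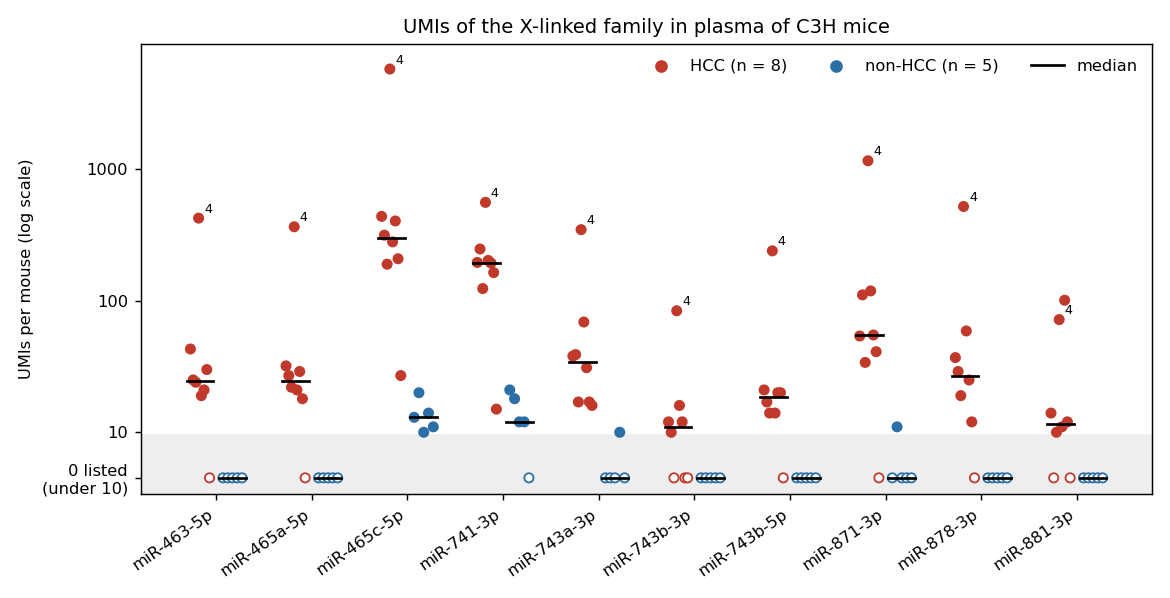
UMIs of each member in each C3H mouse on a log axis, with HCC mice in red, non-HCC mice in blue, entries of 0 as open points in the grey band and medians as black lines; the label 4 marks HCC mouse 4. HCC mouse 4 is the highest point for 9 of 10 members, and most non-HCC points lie in the band of entries under 10 UMIs.

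Entries of 0 made up 10 of 80 member values with HCC and 39 of 50 without it, or 12.5% and 78%. Over all listed miRNAs the shares were 29.2% and 32.9%. Of the 10 zeros in HCC mice, 7 belonged to mouse 8. Every HCC mouse lay above every non-HCC mouse for 2 members, miR-465c-5p and miR-743a-3p, beside 1.38% of the 1452 miRNAs tested (20 miRNAs). This count follows from the way the members were chosen, and the filter on low counts was passed mainly through the HCC mice. After summing the similar pairs, only 4 of the 10 members passed that filter, and 2 members and 30 of all miRNAs had groups that did not overlap. Without HCC mouse 8 the counts were 8 members and 32 of all miRNAs.

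Levels were compared as log2 of UMIs plus 1, scaled by the mean of both spike-ins. The median difference between group means over the 10 members was 5.00 on the log2 scale, with members from 3.15 to 5.52, and over all miRNAs tested it was 0.48. These sizes rest on how entries of 0 are read. With each 0 set to 9 UMIs, the members' median was 2.27 and the range 1.07 to 4.96, while the median over all miRNAs was 0.57. Only miR-465c-5p had no entry of 0 in either group, with mean levels of 8.50 ± 2.58 (SD, n = 8) and 3.53 ± 0.40 (SD, n = 5) and a difference of 4.96. With TMM scaling the median over all miRNAs was 0.02 and that of the members 4.54. In plasma, more releasing cells and more RNA released per cell cannot be told apart.

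HCC mouse 4 stood apart. The 10 members summed to 9587 UMIs there, against 886, 822, 454, 812, 893 and 523 in HCC mice 1, 2, 3, 5, 6 and 7, and 58 in mouse 8. The non-HCC sums were 34, 49, 22, 36 and 11, so mouse 8 was nearer to these than to the other HCC mice. Relative to the median of the 7 other HCC mice, the members of mouse 4 were 2.89-fold to 21.5-fold higher in UMIs, with a median of 15.3-fold. The same ratio had a median of 1.59 over 1250 miRNAs whose median was at least 10 UMIs in those 7 mice. MiR-741-3p had the smallest ratio and miR-871-3p the largest.

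Only 15 of the 1250 miRNAs exceeded a ratio of 10 in HCC mouse 4, and 12 of them came from the X-linked hairpins, 7 being members. The other 3 were miR-208a-3p, miR-499-5p and miR-490-3p, which are named here after their values were seen. MiR-208a-3p and miR-499-5p are miRNAs of heart muscle. MiR-208a-3p had 2460 UMIs in mouse 4 and at most 283 in the other HCC mice, and miR-499-5p had 5369 against at most 725. The 5 muscle miRNAs examined (miR-499-5p, miR-208b-3p, miR-206-3p, miR-133a-3p and miR-1a-3p) summed to 184213 UMIs in mouse 4 and to 3730 to 36099 in the others. Non-HCC mice had 10284 to 51083. In mouse 4 miR-1a-3p (89558) and miR-133a-3p (87205) made up most of the sum, and miR-206-3p, at 494 UMIs, was not highest there. Summed platelet and leukocyte miRNAs were also highest in mouse 4 among HCC mice, at 408936 UMIs against an HCC median of 167276. Summed red cell miRNAs were not, at 2953646 UMIs against 4441902 in mouse 7. The part of muscle RNA in the level of the family was not tested. Without mouse 4 the members' median difference was 4.40, beside 0.31 over all miRNAs, and the groups did not overlap for 2 members and 20 of all miRNAs.

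The make-up of the family also differed in mouse 4. MiR-465c-5p took 60.6% of its member UMIs, against 34.6% to 49.5% in the 6 HCC mice other than 4 and 8. MiR-741-3p took 5.85%, against 21.7% to 31.4%. MiR-881-3p was the exception to the rank of mouse 4. It reached 101 UMIs and 11.3% of the member UMIs in mouse 6, where the similar library of mouse 1 had 14 UMIs.

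**Figure D2:**
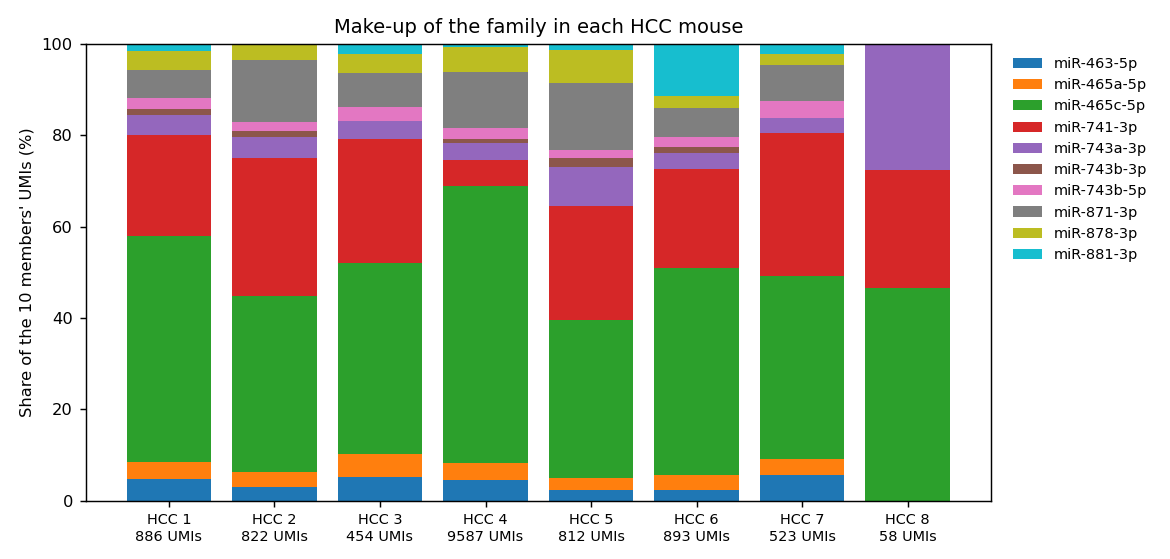
Share of the 10 members' UMIs taken by each member in each HCC mouse, in percent, with the summed UMIs under each bar. MiR-465c-5p takes 60.6% in mouse 4 and miR-881-3p 11.3% in mouse 6, and only 3 members have UMIs in mouse 8.

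Across the 8 HCC mice the members varied together, with Pearson r of 0.60 to 1.00 over the 45 pairs of members and a median of 0.91. These levels share a library and a scale, and no p is given for them. In mouse 8, 7 members were listed at 0 and so held the same level, which raises r. No r for pairs of other miRNAs is given beside these. Which arm of a hairpin was higher differed between hairpins. MiR-878-5p, which is not a member, exceeded its partner miR-878-3p in 8 of 8 HCC mice, with 17 to 1177 UMIs and a median of 58.5. MiR-871-3p exceeded miR-871-5p in 7 of 8, with mouse 8 at 0 for both.

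MiR-463-5p was listed at 0 in all non-HCC mice, where miR-463-3p had 16, 17, 12, 14 and 18 UMIs. In HCC mice miR-463-3p had 0 to 31 UMIs with a median of 22.5, and was at 0 in mice 2 and 5. It exceeded miR-463-5p in 5 of 5 non-HCC mice and in 2 of 8 HCC mice, mice 6 and 8. The other arms miR-741-5p and miR-743a-5p had UMIs in 1 HCC mouse each, mouse 4, with 24 and 21 UMIs. MiR-741-5p was also listed in 3 non-HCC mice, at 12, 10 and 14 UMIs.

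The X-linked hairpins gave 35 entries in all, of which 25 were not members. Of these, 13 could be tested, 5 passed edgeR's quasi-likelihood test (adjusted p threshold of 0.05) as higher in HCC mice and 0 as lower, beside 7.51% of the 1452 miRNAs tested that were higher. The 5 were the joined miR-465 3p entry, miR-470-5p, miR-878-5p, miR-880-3p and miR-883a-3p. MiR-201-3p and miR-547-3p did not pass, with adjusted p of 0.735 and 0.281 in edgeR's test. MiR-201-3p had 0 to 47 UMIs with HCC and 21 to 184 without it. These entries stand in the contrast that chose the members and add no independent evidence on it.

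Other miRNAs known from the testis were set beside the family. The list held miR-34b, miR-34c, miR-449a, miR-449b and miR-449c, which germ cells share with ciliated epithelia, and both arms of miR-202, a gonadal miRNA. Of its 9 entries 7 could be tested, and 0 passed in edgeR's quasi-likelihood test, beside 7.51% of the 1452 miRNAs tested. At an unadjusted p under 0.05 in that test there were 0, beside 283 of all 1452, and 0 passed with DESeq2 or limma. With only 7 entries, a count of 0 cannot settle the testis origin of the family. MiR-34c-5p had 40 to 411 UMIs with HCC and 113 to 330 without it, with a log2 fold change of 1.02 (SE 0.88, adjusted p = 0.641 in edgeR's test). MiR-449a-5p had 24 to 262 and 129 to 337 UMIs, with a log2 fold change of 0.04 (SE 0.81, adjusted p = 0.994 in edgeR's test). The list's median was 0.29, and the median over all miRNAs tested was 0.78. With TMM scaling these were -0.69 and 0.17. The summed UMIs of the list ranged from 188 to 887 with HCC and from 570 to 1037 without it, ranges that overlap.

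The liver list held miR-122-5p, the dominant miRNA of hepatocytes, with miR-802-5p, miR-194-5p, miR-192-5p and miR-122-3p. All 5 were higher in HCC mice in edgeR's test, beside 7.51% of the 1452 miRNAs tested. Their median log2 fold change was 4.51 (3.50 with TMM scaling). The list was chosen with earlier results of these data known, so these calls are a description. With miR-101b-3p in place of miR-802-5p, 4 of 5 were called. MiR-122-5p had 229906 to 4184602 UMIs with HCC and 23049 to 45187 without it. Lists of muscle, red cell, and platelet and leukocyte miRNAs had 0 of 5 called each, with median log2 fold changes of 1.47, -0.64 and -0.69.

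The mean log2 level of the liver list was 15.78, 17.79, 12.12, 15.83, 17.87, 16.66, 12.16 and 14.60 in HCC mice 1 to 8. The log2 summed level of the members was 9.58, 11.13, 7.96, 13.56, 11.19, 10.55, 8.06 and 5.36 in the same order. Both levels were low in mice 3 and 7 and high in mice 2 and 5, each a similar pair of libraries. Mean spike-in UMIs were highest in mice 3 and 7 (437952 and 469953) and lowest in mice 2 and 5 (87617 and 83039). Before scaling, member UMIs were 822 and 812 in mice 2 and 5 and 886 and 893 in mice 1 and 6. In mice 3 and 7 they were 454 and 523. Mice 4 and 8 departed from the order of the scaled liver levels. Mouse 4 was the highest for the members and ranked 4 of 8 for the liver list. Mouse 8 was the lowest for the members, with a liver level above those of mice 3 and 7.

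**Figure D3:**
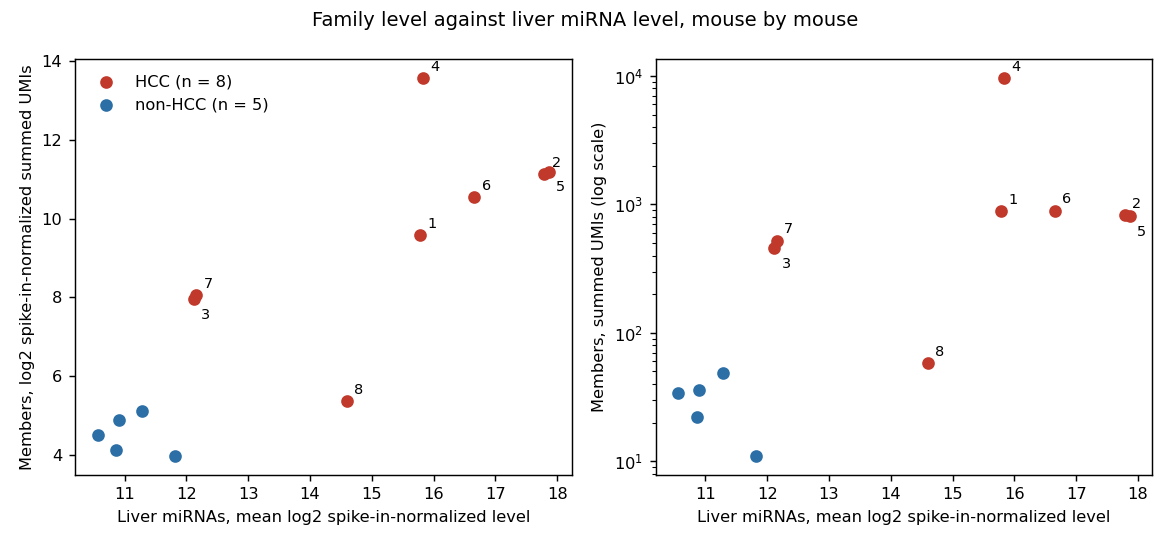
Members against the mean log2 level of 5 liver miRNAs, 1 point per mouse, with members as log2 spike-in-normalized summed UMIs (left) and as raw summed UMIs on a log axis (right); numbers are HCC mice. Mouse 4 lies above and mouse 8 below the other HCC mice in both panels.

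Whether the members follow the liver miRNAs within HCC mice was tested for every miRNA, by an exact two-sided permutation over all 40320 pairings. Each p is the share of pairings that gave a correlation at least as strong, and it concerns these mice only. It treats the mice as exchangeable, which the similar pairs of libraries put in doubt. The median Spearman rho of the members was 0.76 and that of all 1452 miRNAs 0.69. MiR-743a-3p and miR-743b-3p passed, each with rho = 0.83 (exact permutation p = 0.0154, adjusted p = 0.0466), so 2 of 10 members passed beside 33% of all miRNAs. Pearson's r was 0.79 for miR-743a-3p (exact permutation p = 0.024, adjusted p = 0.0688) and 0.86 for miR-743b-3p (exact permutation p = 0.00774, adjusted p = 0.0287). MiR-743b-3p was listed at 0 in HCC mice 3, 7 and 8, so its levels there were set by the spike-in scale alone. At an unadjusted p under 0.05 there were 8 members, or 693 of all miRNAs (47.7%).

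For miR-465c-5p rho was 0.76 and r was 0.59 (exact permutation p = 0.0368 and 0.122, adjusted p = 0.0814 and 0.234). For miR-881-3p rho was 0.40 and r was 0.34 (exact permutation p = 0.327 and 0.405, adjusted p = 0.45 and 0.569). On this scale 45.2% of all miRNAs had a rho at or above the members' median. The spike-in scale entered both sides of each relation. Over the 8 HCC mice its rho was -0.98 with the liver level and -0.76 with the members' log2 sum.

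With TMM scaling, 0 members passed, and the median rho was 0.39 for members and -0.14 for all miRNAs. As shares of all miRNA UMIs, 0 members passed, with medians of 0.37 and 0.00. Without mice 3 and 7, which lay farthest from the median liver level, 0 members and 0 of all miRNAs passed, with a median rho of 0.60 for members and 0.54 for all. For miR-743a-3p r was then 0.57 and for miR-743b-3p 0.66, so the calls did not hold with 6 mice. Leaving out any 1 of mice 1, 2, 3, 5, 6, 7 and 8 gave 0 members passed, beside 247 to 449 of all miRNAs, while rho of miR-743a-3p and miR-743b-3p stayed at 0.75 to 0.86. Leaving out mouse 4 gave 3 members and 406 of all miRNAs. After summing the similar pairs 5 libraries remained, too few for a correlation, since the smallest exact p they allow is 0.0167.

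**Figure D4:**
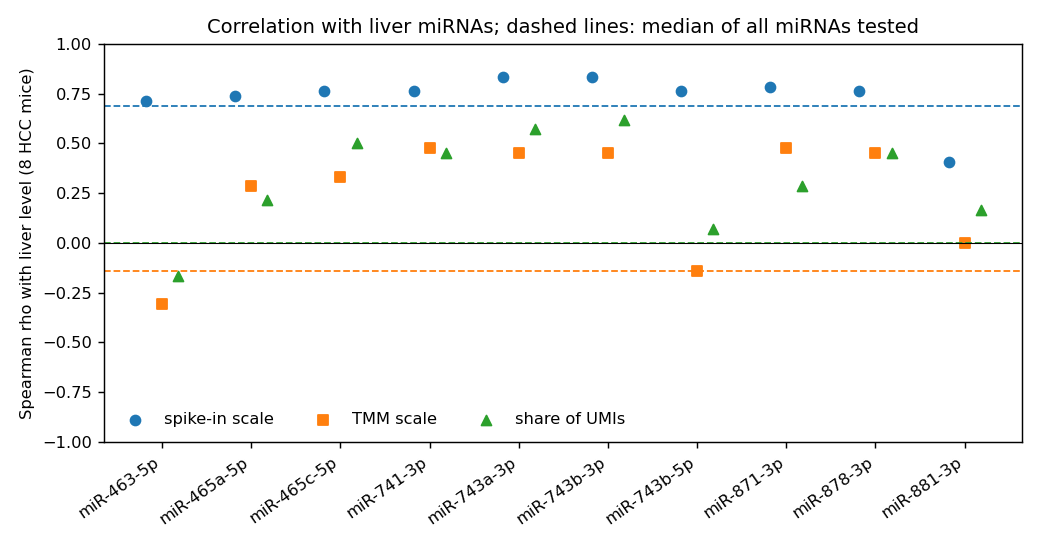
Spearman rho of each member with the liver level over 8 HCC mice under 3 scales, with dashed lines for the median of 1452 miRNAs on the scale of the same color. On the spike-in scale 9 of 10 members lie above 0.70 near the median of all miRNAs, 0.69, and on the TMM scale the members range from -0.31 to 0.48.

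By Pearson's r with the members' log2 sum over the 13 C3H mice, the 5 most alike of 1429 miRNAs from elsewhere were miR-6413, miR-29c-3p, miR-874-3p, miR-192-5p and miR-503-3p, with r of 0.90, 0.90, 0.89, 0.89 and 0.87. All 5 had their highest UMI count, before spike-in scaling, in HCC mouse 4, and miR-192-5p is on the liver list. Over the 8 HCC mice they were miR-7036a-3p, miR-582-3p, miR-532-3p, miR-1191b-5p and miR-204-5p, with r of 0.92, 0.92, 0.90, 0.90 and 0.90. MiR-204-5p had 230 UMIs in mouse 4 and a median of 53.5 in HCC mice. Among HCC mice these 5 again had their highest UMI count in mouse 4, and none was on the liver list.

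The F2 table lists 1885 miRNAs and all 10 members. Its 53 columns could not be matched to single samples, so only their spread is given. The labels describe 53 F2 samples from 15 mice, all labelled HCC, taken 1, 6, 12 or 18 months after radiation, and 22 of the samples came from 7 female mice. A library held 205194 to 3020311 miRNA UMIs, with a median of 846338. Each of the 53 libraries listed at least 1 member, with a median of 6 and at most 10. The members summed to 10 to 231 UMIs with a median of 90.

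Of 530 member entries, 285 were above 0 (53.8%), and 203 of these lay from 10 to 20 UMIs. Entries of 0 made up 46.2%, against 36.7% over all F2 miRNAs. MiR-878-3p and miR-743a-3p were the most regular, each listed in 50 of 53 libraries, with medians of 23 and 17 UMIs. MiR-741-3p was listed in 42, with a median of 17. MiR-465c-5p was listed in 31, with a median of 10 and a highest value of 29. MiR-743b-5p was the least regular and was listed in 10.

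The highest F2 entry was miR-463-5p with 68 UMIs in 1 library. The next was miR-743b-5p with 59 UMIs in another library, which also had the highest member sum, 231. The second highest values of these miRNAs were 31 and 16. In HCC mouse 4, at a greater depth, 10 of 10 members exceeded 68 UMIs.

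MiR-465c-5p made up 9.17% of the member UMIs in the F2 table and 54.7% in the pooled HCC mice of the C3H table, where mouse 4 gave most of the UMIs and every other mouse was at 49.5% or less. For miR-878-3p the shares were 23.1% and 5.01%. The F2 libraries were shallower and most of their entries above 0 lay near the listing limit, so the shares in both tables are not comparable. MiR-741-5p, which had UMIs in 4 of 13 C3H mice, was listed in 52 of 53 F2 libraries with a median of 23 UMIs. MiR-465b-5p was listed in 51 with a median of 22, above miR-465c-5p.

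Scaled to the miRNA total of each library as CPM, the members summed to 14.3 to 469 CPM in F2 libraries, with a median of 95.6. The C3H medians were 57.9 CPM with HCC and 2.66 CPM without it. Both tables come from different cohorts, depths and ways of taking blood, so these values stand side by side without a comparison. Over the 53 F2 libraries, which share mice, rho with depth was 0.19 for member UMIs and -0.50 for member CPM. The Spearman correlation of member UMIs with the share of miR-122-5p was -0.20.

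**Figure D5:**
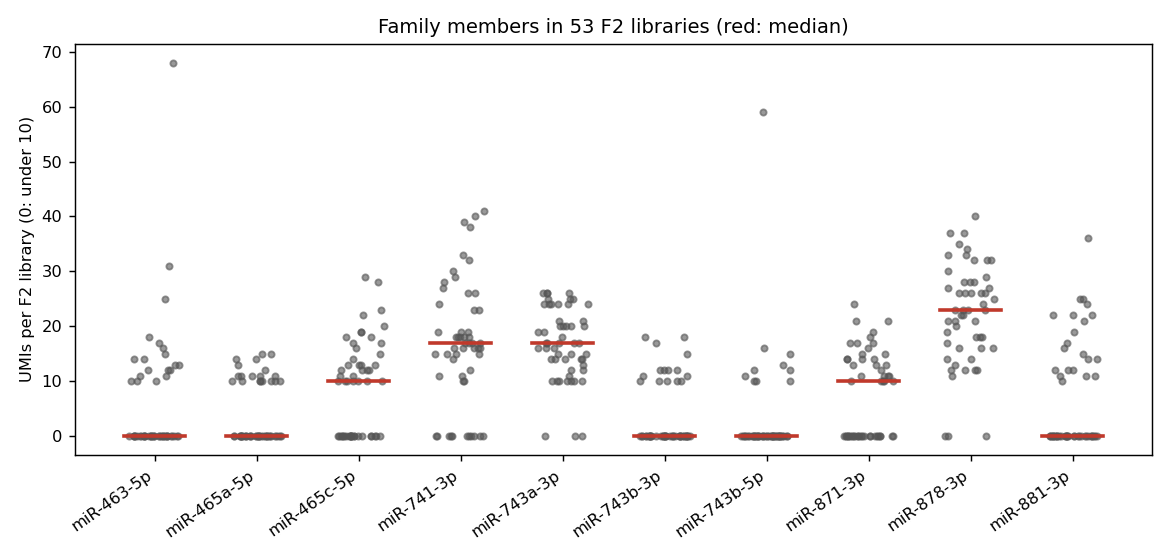
UMIs of each member in the 53 F2 libraries, 1 point per library, with red lines at the medians; points at 0 are entries under 10 UMIs. MiR-878-3p and miR-743a-3p are listed in 50 of 53 libraries, and single libraries reach 68 UMIs for miR-463-5p and 59 for miR-743b-5p.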

How the data were processed

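Plasma small RNA libraries with molecular barcodes were analysed. Per the labels and the study's methods, the authors used Bowtie2 and GRCm38, annotated miRNAs by miRBase 20 and deposited UMI counts per miRNA, not normalized, with the spike-ins UniSP2 and UniSP4. C3H columns were mapped by mouse name. The 53 F2 columns match no single label, were assigned to the F2 group only and enter no test.

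The members and lists were chosen with earlier results of these data known. MiRNAs named are the members, the other entries of their hairpins, lists of liver, testis, muscle, red cell, and platelet and leukocyte miRNAs, and the 5 most alike miRNAs over 13 and over 8 mice. The red cell list was miR-16-5p, miR-486a-5p, miR-451a and both arms of miR-144, and that of platelets and leukocytes miR-126a-3p, miR-150-5p, miR-223-3p and both arms of miR-142a. A few others are said to be chosen after their values were seen.

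Groups were compared with edgeR 4.0.16 (quasi-likelihood test, R 4.3.3) on counts of miRNAs that reached 5 UMIs in 5 or more mice, with the spike-in mean as library scale and Benjamini-Hochberg adjustment over all miRNAs. Because the spike-in mean sets the scale, a mouse with few spike-in UMIs has all its levels raised together. Levels are log2 of UMIs plus 1 over the relative spike-in mean. Correlations used Python 3.11.15 with pandas 2.3.3 and numpy 2.4.6, with ranks and exact permutation. Both procedures were run on simulated data. The simulation for the correlations had no shared scale and no entries of 0, so it does not cover these features of the data. Alternatives were TMM, UniSP4 alone, shares of all UMIs, limma 3.58.1, DESeq2 1.42.0, other filters, entries of 0 set to 9, a replicate block, other liver measures and each mouse left out. Only the sum of similar HCC libraries was chosen after seeing the data. Sequences are from RefSeq, and gene positions from GENCODE M21.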

Additional observations from a re-analysis of the deposited data

Results flagged for a closer look

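In 3 of 16 groups of member levels examined, 1 non-HCC mouse lay far from the other 4, by a gap of more than 0.71 of the group's range. The limit would flag about 1 in 20 groups of independent, normally distributed values. These groups hold many entries of 0 and come from the same libraries, so that rate does not apply to them. The log2 level of miR-741-3p was 0.39 in non-HCC mouse 5, listed at 0 UMIs, and the next value was 3.29. MiR-743a-3p was at 3.14 in non-HCC mouse 4, with 10 UMIs, above a next value of 0.39 from an entry of 0. MiR-871-3p was at 3.05 in non-HCC mouse 2, with 11 UMIs, above the same 0.39. Each gap lies between an entry of 0 and a count close to the listing limit of 10 UMIs.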

How the results depend on the processing

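The count of 109 miRNAs called between the groups became 183 with DESeq2 and spike-in size factors, 222 with DESeq2 and its own size factors, and 44 with limma. TMM gave 139, and with similar libraries summed it was 97. Without 1 mouse it ranged from 44 to 157, and was 44, 47, 47 and 53 without non-HCC mice 1, 2, 3 and 4 and 65 without HCC mouse 2. Replicate numbers are shared by both groups. The deviations of same-numbered mice correlated at only -0.13 to 0.07, which gives no sign that the numbers pair the mice but cannot exclude it. The replicate block gave 145 calls. The count of testis miRNAs outside the cluster was 0 under every alternative run.

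The members' median difference was 5.00, and from 4.40 to 5.48 without 1 mouse. Members with groups that did not overlap numbered 2 (20 of all miRNAs), 1 with entries of 0 set to 9 (18 of all), and from 2 to 8 without 1 mouse (20 to 32 of all). They stayed at 2 on other scales, while the count over all miRNAs rose to 54 with TMM, 60 with shares of UMIs and 32 with UniSP4 alone. Members called for correlation with the liver level numbered 2, and 0 with TMM (0 of all miRNAs), shares of UMIs (13), miR-122-5p alone (326), miR-101b-3p in place of miR-802-5p (326), without the 2 mice farthest from the median (0), or with similar libraries summed (0). With both other liver measures the correlation of miR-743a-3p and miR-743b-3p was 0.74. The number was 8 with entries of 0 set to 9, where 1128 of all 1452 miRNAs passed, and 0 to 3 without 1 mouse. The Spearman correlation reversed for miR-463-5p with TMM (-0.31) and shares (-0.17) and for miR-743b-5p with TMM (-0.14). F2 entries above 0 numbered 285, and those of at least 20 UMIs 89. The causes of these shifts were not tested. Depth limits every member, since values under 10 UMIs were not listed.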
